A study of Mus musculus with 3 samples.

Results

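The levels of 6 genes, of 31055 counted, were described across the nuclei of the mouse olfactory bulb (OB), namely the LIM homeobox genes Lhx1, Lhx5, Lhx2 and Lhx9, the noncoding neighbour Lhx1os of Lhx1, and the paired-class homeobox gene Uncx. The genes were taken by name and were selected on their counts in these same nuclei, so that their levels by cell type are given as a description, without a test. The nuclei came from 3 adult C57Bl/6 mice, 1 library each, which form 1 group. All had received rAAVretro-CAG-H2B-GFP, a retrogradely transported virus that drives a nuclear green fluorescent protein from a ubiquitous promoter, in the piriform cortex (PCx) and the anterior olfactory nucleus (AON), and fluorescent nuclei were sorted. No uninjected mice and no second condition belong to the comparison, and the sort also holds inhibitory neurons and glia, so that a type is described here only as far as its nuclei were labelled or carried through.

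The clusters of projection neurons, the mitral and tufted cells that carry the output of the OB to the cortex, were subclustered, and the subclusters held 1559, 4359 and 1586 nuclei, some of them with inhibitory markers, of 5845, 21105 and 4753 retained nuclei in mice 1, 2 and 3. The median retained nucleus held 7940, 8420 and 10568 UMIs (unique molecular identifiers, which count captured RNA molecules). Subclusters are called T1-like (middle tufted, number 0), M2-like (1), ET4-like (external tufted, 3), ET1-like (4), M1-like (5), ET2-like (6) and M3-like (7) from marker lists that hold none of the 6 genes. The lists come from the study, which chose its markers on these nuclei, and all 7 ET2 and all 13 M1 markers so used were carried by the subcluster of that name. A marker counts as carried where its mean reaches a set share of its highest mean among the subclusters, or among the clusters. The share asked of clusters is lower, so that counts for clusters and subclusters are not comparable. Subclusters 2 and 8 kept their numbers, since 8 of 10 inhibitory neuron markers were carried by subcluster 2 and no list of a projection neuron type was carried by subcluster 8. Subcluster 9, which carried 10 of 10 inhibitory and 6 of 7 periglomerular markers and 1 of 9 projection neuron markers, had at least 10 nuclei in mouse 2 only and is left out of the levels below. The M1-like library of mouse 1 rests on 14 nuclei, against 465 and 207 in mice 2 and 3, and each M1-like value below is read with that in mind.

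LIM homeodomain proteins bind DNA through a homeodomain and, through their LIM domains, hold the cofactors Ldb1 and Ldb2, which join them into larger complexes. They are known as selectors of neuronal identity in the developing brain and spinal cord, and Lhx2 is also known for its part in early forebrain and olfactory development. Uncx belongs to the paired class of homeodomain proteins and is best known from the developing spine and brain.

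Lhx1 and Lhx1os lie head to head. On GRCm38, Lhx1 (ENSMUSG00000018698, protein coding) runs on the minus strand of chromosome 11 from 84518284 to 84525535, and Lhx1os (ENSMUSG00000087211, lincRNA) on the plus strand from 84525660 to 84535831, so that the annotated genes do not overlap and their starts are 125 bases apart. Uncx (ENSMUSG00000029546) lies on the plus strand of chromosome 5 from 139543494 to 139548179. The start regions of these genes are printed because the 3 genes shared 1 subcluster, as described next. The sequences are from RefSeq (GRCm38.p6) and reach from 250 bases before the start of Lhx1os or Uncx to 50 bases after it, on the plus strand, chr11:84525410-84525709 and chr5:139543648-139543947. In the first, capitals mark the 125 bases between the RefSeq starts of Lhx1 and Lhx1os. The RefSeq start of Uncx lies inside the gene as given above, and in its window capitals mark TAATTA, a core sequence to which many homeodomain proteins bind.
Lhx1/Lhx1os: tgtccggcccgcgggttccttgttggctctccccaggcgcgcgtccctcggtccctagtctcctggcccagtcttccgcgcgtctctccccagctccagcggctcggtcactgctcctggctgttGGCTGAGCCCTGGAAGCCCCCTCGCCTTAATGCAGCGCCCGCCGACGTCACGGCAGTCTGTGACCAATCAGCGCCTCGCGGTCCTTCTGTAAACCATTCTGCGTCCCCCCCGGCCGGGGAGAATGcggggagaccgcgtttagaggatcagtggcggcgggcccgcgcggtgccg
Uncx: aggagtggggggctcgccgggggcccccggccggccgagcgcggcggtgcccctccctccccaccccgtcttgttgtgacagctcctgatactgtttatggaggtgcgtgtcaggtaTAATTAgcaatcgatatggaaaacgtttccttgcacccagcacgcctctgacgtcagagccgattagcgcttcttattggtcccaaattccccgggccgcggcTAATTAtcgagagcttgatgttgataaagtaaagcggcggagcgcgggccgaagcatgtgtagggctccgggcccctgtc
TAATTA, which reads the same on both strands, stood 2 times in the Uncx window and in no window of Lhx1, Lhx1os, Lhx2 or Lhx9. Of the 32851 windows of this length in the table, 5.29% held it and 0.490% held it 2 or more times. CCAAT, searched on both strands, stood once each in the windows of Lhx1, Lhx1os, Uncx and Lhx9 and in neither of the 2 Lhx2 windows, and 37.4% of all windows held it. The windows of Lhx1 and Lhx1os overlap, and their CCAAT is the same site, which lies within the capitals. These are matches of letters and show no binding. For Lhx5 no window was given.

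Lhx1, a LIM homeodomain factor, was found almost wholly in ET2-like nuclei. Its level there was 90.3, 90.3 and 93.8 CPM (UMIs per 1000000 UMIs of the library) in mice 1, 2 and 3 (91.5 ± 2.04 CPM, SD, n = 3), from 561 UMIs. Values after ± are SDs over the 3 mice throughout. In the other 8 subclusters its mean was between 0 and 1.09 CPM, and the highest single library was the one of mouse 2 in subcluster 8, at 3.27 CPM. No ET2-like library came near any other. Pooled over mice, Lhx1 was 343-fold higher in ET2-like nuclei than in the other 8 subclusters together (32 UMIs, counting interval 240.4 to 507).

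Lhx1os had the same distribution. It reached 82.2, 51.6 and 76.9 CPM in the ET2-like libraries (70.2 ± 16.3 CPM, SD, n = 3), from 380 UMIs. Its next highest mean was 2.22 ± 3.44 CPM in M1-like nuclei, from 5 UMIs, of which 1 made 6.19 CPM in the small library of mouse 1. M3-like and ET1-like nuclei held no UMI of it. The pooled ratio to the other 8 subclusters was 677 (11 UMIs, counting interval 374 to 1367).

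Uncx was the third gene of this kind, at 33.6, 21.4 and 35.3 CPM in ET2-like nuclei (30.1 ± 7.55 CPM, SD, n = 3), from 162 UMIs. Every other subcluster mean was 0.364 CPM or less, and M2-like, ET4-like and M3-like nuclei held none of its UMIs. The pooled ratio was 529 (6 UMIs, counting interval 238 to 1462). These intervals cover counting error only. Mouse 2 had the lowest value of Lhx1os and of Uncx among the ET2-like libraries and not of Lhx1.

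For Lhx1, Lhx1os and Uncx, each ET2-like library thus lay above all 18 libraries of the other named subclusters, which held for 3 of the 6 genes. Over the 14696 genes tested, 18.0% had 1 named subcluster whose libraries all lay above the others, and for 4.22% it was ET2-like. Since the genes were picked for such a pattern, their count is set beside these shares only as a description.

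**Figure D1:**
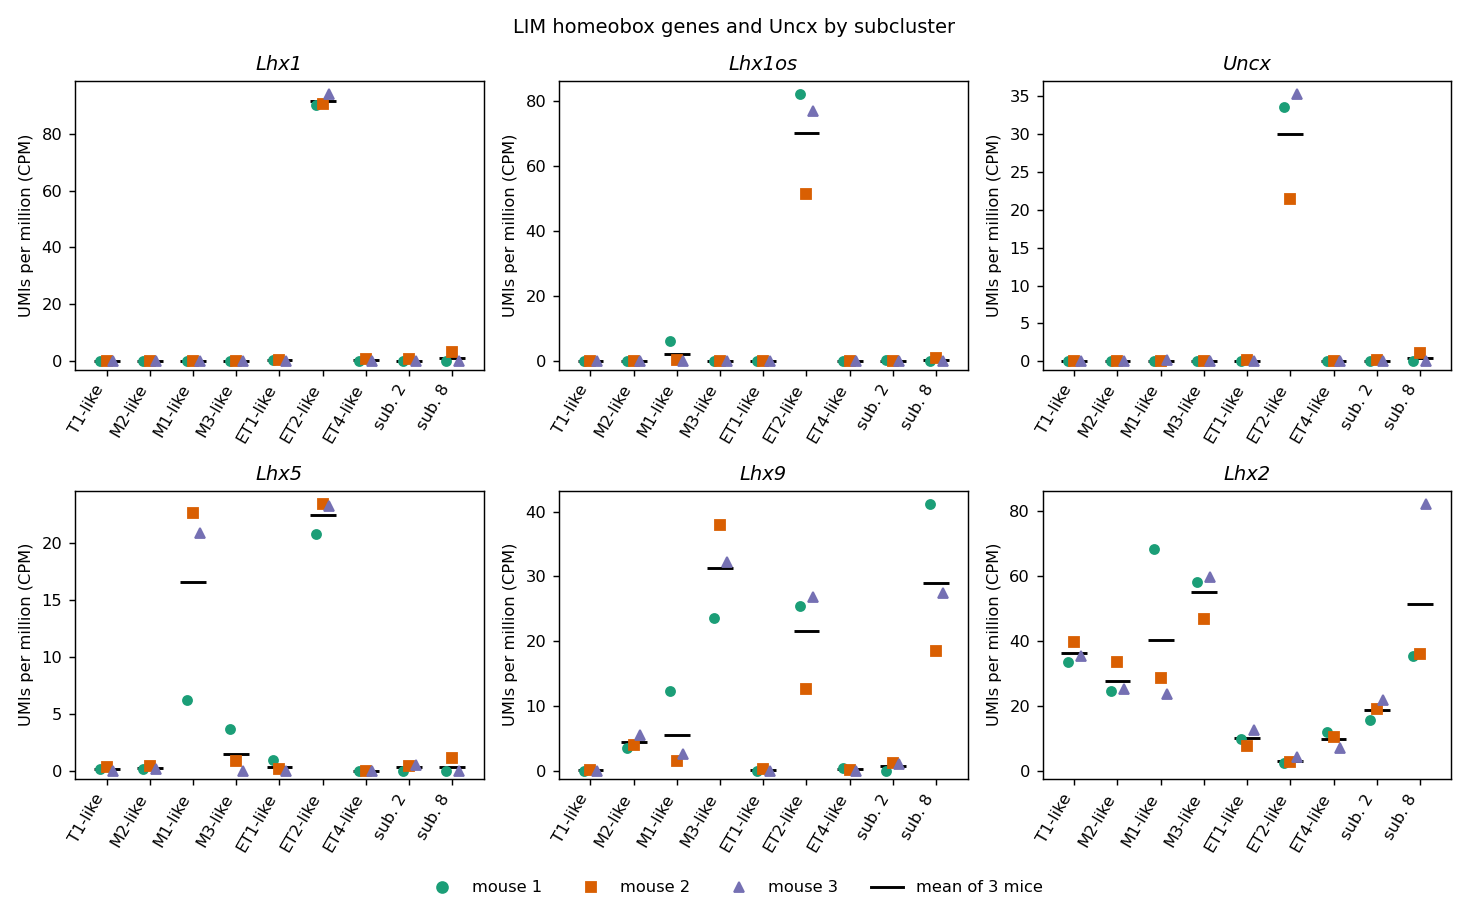
Levels (CPM, linear axes) of the 6 genes in 9 subclusters, with 1 symbol per mouse and a bar at the mean of 3 mice. Lhx1, Lhx1os and Uncx stand above 21 CPM in ET2-like nuclei and near 0 elsewhere, Lhx5 is high in ET2-like and M1-like nuclei, and Lhx2 is lowest in ET2-like nuclei.

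The ET2-like subcluster came from cluster 14 as a whole. Of its 489 nuclei, 471 were ET2-like, and the other 18, all from mouse 2, had been placed in other subclusters. Those 18 nuclei held Lhx1 at 31.8 CPM (12 UMIs), Lhx1os at 21.2 CPM (8 UMIs) and Uncx at 13.2 CPM (5 UMIs). All 7015 other subclustered nuclei together held Lhx1 at 0.188 CPM and Uncx at 0.0164 CPM. The 24199 nuclei without a subcluster, mostly inhibitory neurons and glia, held 39 UMIs of Lhx1 in 29 nuclei, or 0.189 CPM. Of all Lhx1 UMIs in the data, 88.3% were in ET2-like nuclei, and for Lhx1os and Uncx the share was 90.0%.

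Single nuclei were read thinly. An Lhx1 UMI was seen in 260 of 471 ET2-like nuclei, an Lhx1os UMI in 201 and a Uncx UMI in 96, at a median of 11893 UMIs per nucleus. With each nucleus thinned to 5000 UMIs, which 454 of the 471 reached, the share was 37.2% instead of 55.2% for Lhx1, 24.7% instead of 42.7% for Lhx1os and 12.1% instead of 20.4% for Uncx. At least 1 of the 3 genes was seen in 76.8%, 73.0% and 78.2% of ET2-like nuclei of mice 1, 2 and 3, and all of them in 32 of 471 nuclei. The 120 nuclei with none of them had a median of 11025 UMIs, against 12094 in the 351 others. In the nuclei without a subcluster, where Lhx1 was seen in 29 of 24199, the median was 7487 UMIs.

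**Figure D2:**
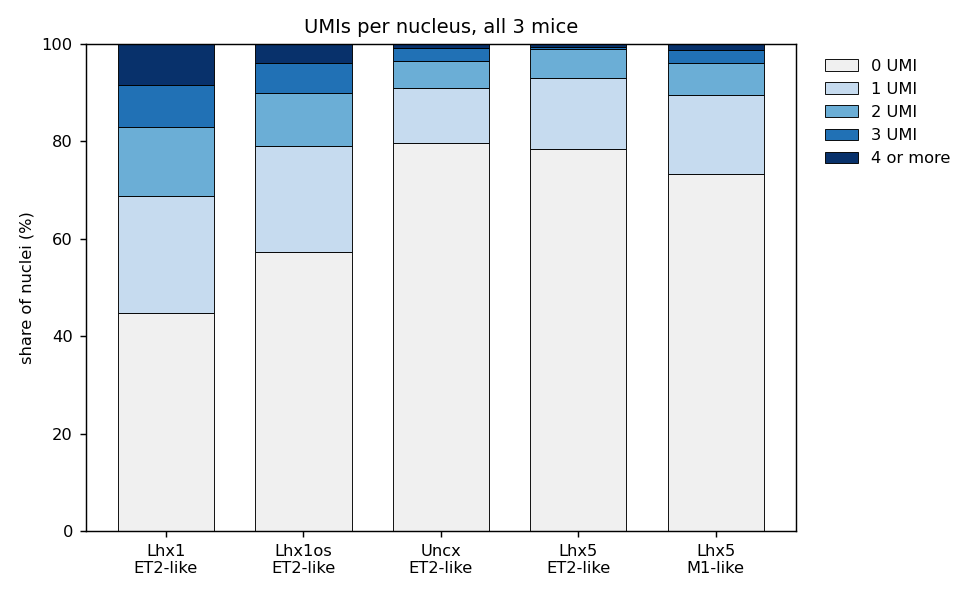
Share of nuclei (%) with 0, 1, 2, 3 or 4 and more UMIs of a gene, for Lhx1, Lhx1os, Uncx and Lhx5 in 471 ET2-like nuclei and for Lhx5 in 686 M1-like nuclei, all mice pooled. More than 1 in 2 ET2-like nuclei hold Lhx1 UMIs, most of them 1 or 2, and the other genes are seen in fewer nuclei.

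The genes were also looked for in the same ET2-like nuclei, with and without thinning, and the shares are pooled over mice unless a mouse is named. Lhx1os was seen in 48.1% of nuclei with Lhx1 and in 36.0% of those without it, and after thinning in 24.3% and 24.9%. Uncx was seen in 24.2% of nuclei with Lhx1 and in 15.6% without, and after thinning in 14.8% and 10.5%. For Lhx5 the shares with and without Lhx1 were 23.5% and 19.0%, and 13.6% and 9.82% after thinning. Mouse 1 had the reverse order, at 12.8% and 26.7%, and 3.70% and 10.3% after thinning. For Lhx9 the shares with and without Lhx1 were 16.2% and 9.48%, and 10.7% and 8.07% after thinning, where mouse 1 had the reverse order, at 7.41% and 15.4%. Lhx2 was seen in 4 of 260 nuclei with Lhx1 and in 9 of 211 without it. Nuclei with UMIs of Lhx1 and of Lhx5 or Lhx9 were thus found.

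Lhx5, the closest relative of Lhx1 among these genes, was high in both ET2-like and M1-like nuclei. On GRCm38 it lies on the plus strand of chromosome 5 from 120431699 to 120441223 (ENSMUSG00000029595). Its level was 20.8, 23.5 and 23.3 CPM in ET2-like nuclei (22.5 ± 1.48 CPM, SD, n = 3) and 6.19, 22.6 and 20.9 CPM in M1-like nuclei (16.6 ± 9.04 CPM, SD, n = 3). The low value is that of mouse 1, with 1 UMI in 14 nuclei, and without it the M1-like mean was 21.8 CPM. The ranges of the 2 subclusters overlapped. The next highest mean was 1.50 ± 1.89 CPM, in M3-like nuclei, from 3 UMIs. Against the 7 remaining subclusters pooled, Lhx5 was 91.4-fold higher in ET2-like nuclei (counting interval 60.3 to 144) and 86.4-fold higher in M1-like nuclei (58.2 to 133). Lhx5 was thus high in ET2-like nuclei and in a mitral type, while Lhx1 stood at 0.0664 ± 0.115 CPM in M1-like nuclei.

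Lhx9 was found in M3-like and ET2-like nuclei and in subcluster 8. The gene (ENSMUSG00000019230) lies on the minus strand of chromosome 1 from 138825186 to 138848577, and its product is the closest relative of Lhx2. In M3-like nuclei it measured 23.6, 38.0 and 32.2 CPM in mice 1, 2 and 3 (31.3 ± 7.23 CPM, SD, n = 3). In ET2-like nuclei it measured 25.5, 12.6 and 26.8 CPM (21.6 ± 7.82 CPM, SD, n = 3). In subcluster 8 it measured 41.2, 18.6 and 27.4 CPM (29.0 ± 11.4 CPM, SD, n = 3). The ranges of the 3 subclusters overlapped, so that they form no order beyond their spread. M2-like nuclei held Lhx9 at a lower level that was alike in the mice, 3.57, 3.99 and 5.49 CPM from 109 UMIs. M1-like nuclei held 12.4, 1.56 and 2.60 CPM, of which the first rests on 2 UMIs. T1-like nuclei, in contrast, held 2 UMIs among 35926945, and ET1-like and ET4-like nuclei 2 UMIs each. The M2-like and T1-like libraries thus did not overlap in Lhx9. Against the other 6 subclusters pooled, Lhx9 was 23.3-fold higher in M3-like nuclei (counting interval 17.5 to 30.7), 18.4-fold higher in subcluster 8 (13.6 to 24.6) and 12.5-fold higher in ET2-like nuclei (9.72 to 16.0).

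Lhx2 was the broad member of the group. It lies on the plus strand of chromosome 2 from 38339281 to 38369733 (ENSMUSG00000000247). Its mean level was 54.8 ± 7.01 CPM in M3-like nuclei, 51.2 ± 26.9 CPM in subcluster 8, 40.1 ± 24.4 CPM in M1-like nuclei, 36.1 ± 3.07 CPM in T1-like nuclei and 27.6 ± 4.92 CPM in M2-like nuclei (SD, n = 3 mice each). It was 18.8 ± 3.20 CPM in subcluster 2, 10.1 ± 2.46 CPM in ET1-like, 9.74 ± 2.53 CPM in ET4-like and 3.04 ± 1.04 CPM in ET2-like nuclei. The 4 highest of these overlapped each with its neighbour in the order. T1-like and M2-like libraries did not overlap, with 33.5 CPM as the lowest T1-like and 33.3 CPM as the highest M2-like value. ET1-like and ET4-like libraries overlapped, and both lay below all libraries of the mitral types and of T1-like nuclei.

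The value of 68.1 CPM in the M1-like library of mouse 1 came from 14 nuclei, and without it the M1-like mean of Lhx2 was 26.1 CPM. In ET2-like nuclei Lhx2 measured 2.31, 2.58 and 4.23 CPM from 18 UMIs. In 10 clusters that carried 7 or more of 10 inhibitory markers, Lhx2 had means between 0.139 and 3.57 CPM. Among these 10, only cluster 8 had a higher mean than the 3.04 CPM of ET2-like nuclei. The 4.23 CPM of mouse 3 lay above all of these means, but below the highest single library of cluster 8, at 7.15 CPM. Cluster 21, which carried 9 of the 10 inhibitory markers beside 4 of 9 projection neuron markers, had 19.5 ± 1.14 CPM from 7 UMIs in 2 mice. All nuclei without a subcluster pooled had 3.12 CPM. Whether background RNA accounts for the Lhx2 UMIs of ET2-like nuclei was not tested. The ratio of its pooled level to that of the other 8 subclusters was 0.108 (counting interval 0.0640 to 0.171). Across the named subclusters, the type with the highest Lhx1 thus had the lowest Lhx2.

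In M1-like nuclei Lhx2 and Lhx5 were both present. Pooled over mice, Lhx5 was seen in 53 of 224 nuclei with an Lhx2 UMI (23.7%) and in 28.1% of nuclei without one. Mouse 3 had the reverse order, at 32.4% and 28.8%. After thinning, with 662 of 686 nuclei kept, the pooled shares were 6.45% and 9.67%. In M3-like nuclei Lhx2 was seen in 14 of 43 nuclei with Lhx9 and in 20.5% of those without it, but the nuclei with Lhx9 were deeper, at a median of 9972 against 4568 UMIs. After thinning, with 176 of 326 nuclei kept, the pooled shares were 18.2% and 21.0%, and mouse 2 had the reverse order, at 23.8% and 20.8%. In either type, then, nuclei with UMIs of both genes were found.

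The M3-like and numbered subclusters drew on several clusters of the first clustering, and Lhx2 and Lhx9 were read by that origin. Of the M3-like nuclei, 223 came from cluster 5 and held Lhx2 at 59.8 and Lhx9 at 37.4 CPM, pooled over mice. Another 70 came from cluster 2, with a median of 2875 UMIs against 8306, and held 3 UMIs of Lhx2 and none of Lhx9 among 225718. A count of 0 there allows an Lhx9 level of up to 13.3 CPM, under that of the nuclei from cluster 5. The 25 M3-like nuclei from cluster 4 held Lhx9 at 33.3 CPM, from 3 UMIs, and 1 UMI of Lhx2. Subcluster 2, in which inhibitory markers were carried, held Lhx2 at 25.3 CPM in its nuclei from cluster 2, 19.9 CPM in those from cluster 5 and 7.35 CPM in those from cluster 4, pooled over mice. The pooled values rest mostly on mouse 2, which had 26.7, 19.9 and 6.92 CPM in this order. In mouse 1 the 3 origins did not follow that order, at 14.1, 16.8 and 16.4 CPM, and mouse 3 had 25.8, 24.7 and 0 CPM, the last from 14 nuclei. The pooled Lhx9 of subcluster 2 was 3.98 CPM in the nuclei from cluster 5, 0.389 CPM in those from cluster 2 and 0 of 5987591 UMIs in those from cluster 4. Clusters 2, 5 and 4 are those that fed the T1-like subcluster, the M2-like subcluster, and the ET1-like and ET4-like subclusters.

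In subcluster 8, the 71 nuclei from cluster 4, the cluster of ET1-like and ET4-like nuclei, held Lhx2 at 79.9 CPM and Lhx9 at 32.8 CPM. The ET1-like and ET4-like nuclei of the same cluster held 9.22 and 10.2 CPM of Lhx2 and 0.200 and 0.204 CPM of Lhx9. The summed level of 7 astrocyte markers was also high in subcluster 8, at 312, 830.4 and 478 CPM in mice 1, 2 and 3, with 2 of the 7 at 0 in mouse 1. It was between 37.8 and 337 CPM in the libraries of the named subclusters. Of the sums in subcluster 8, the marker Slc1a2 alone made 229, 355 and 330 CPM. The part of astrocyte RNA in the Lhx2 of subcluster 8 was not tested.

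Outside the projection neurons, Lhx2 was high in the astrocyte-like cluster 9. It measured 25.2, 31.3 and 43.1 CPM in mice 1, 2 and 3 (33.2 ± 9.06 CPM, SD, n = 3), from 249 UMIs, beside 33.8 ± 2.29 CPM in cluster 2, which fed the T1-like subcluster. Slc17a7, the vesicular glutamate transporter of projection neurons, was at 42.2 ± 17.9 CPM in cluster 9 and at 386 ± 85.4 CPM in cluster 2. The inhibitory cluster 8 held Slc17a7 at 56.4 ± 37.5 CPM and Lhx2 at 3.57 ± 3.20 CPM. An Lhx2 UMI was seen in 172 of 1136 astrocyte-like nuclei. Those 172 nuclei held Aqp4, the water channel of astrocytes, at 462 CPM, and the 964 others at 443 CPM. In mouse 1 Aqp4 was lower with Lhx2, at 539 against 655 CPM, and in mice 2 and 3 it was higher. Slc1a2, another astrocyte marker, was at 1278 CPM with and 1377 CPM without Lhx2. It was lower with Lhx2 in mice 1 and 2 and higher in mouse 3. Slc17a7 was at 67.5 CPM with and 35.9 CPM without Lhx2, and higher with it in each mouse, and Tbx21, a T-box factor of mitral and tufted cells, was at 12.6 and 3.33 CPM. The part of RNA from projection neurons in the Lhx2 of cluster 9 was not tested. Lhx2 in the remaining glial and vascular clusters was low or rested on few UMIs, such as 11.0 ± 8.01 CPM from 5 UMIs in the microglia-like cluster 20. Lhx5 and Lhx9 stood at 0.124 and 0.690 CPM in cluster 9.

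**Figure D3:**
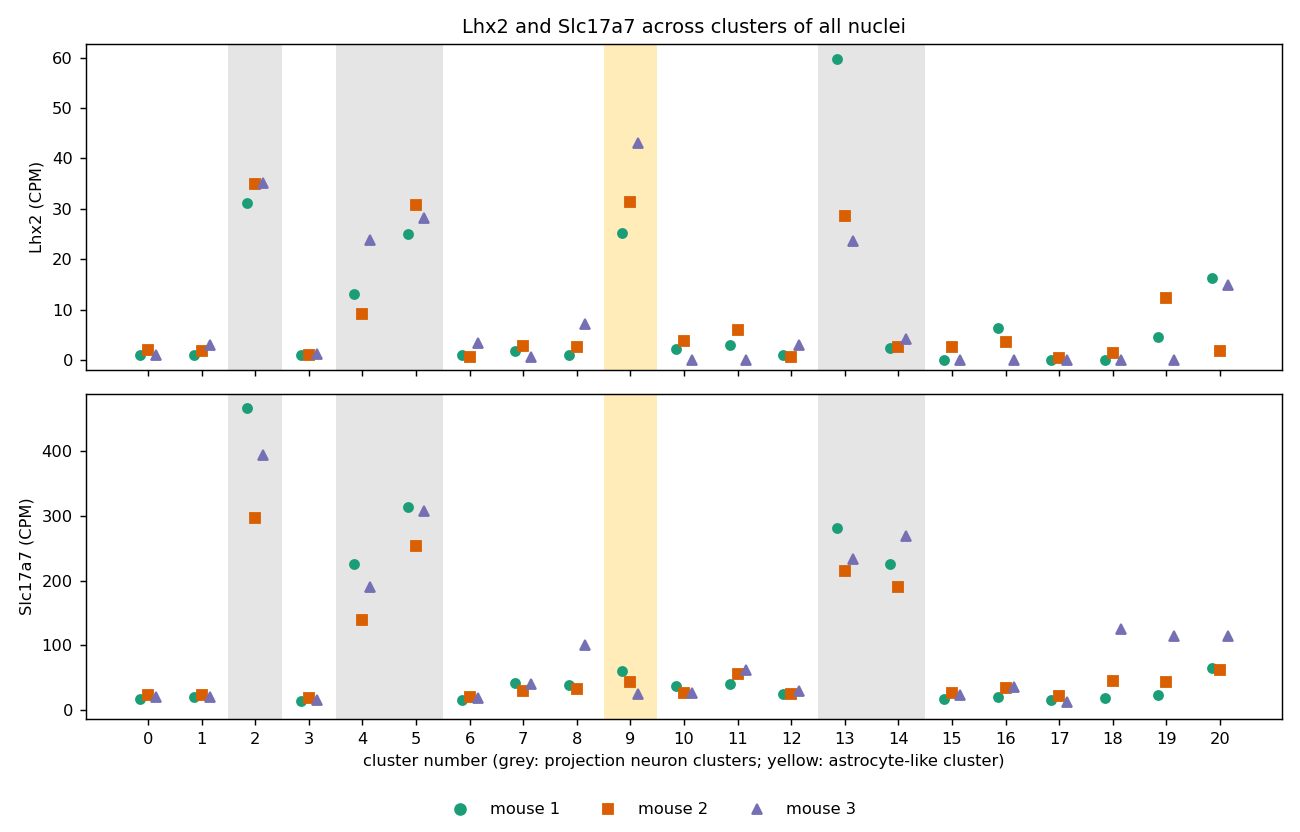
Levels (CPM, linear axes) of Lhx2 and of the glutamate transporter gene Slc17a7 in clusters 0 to 20 of all nuclei, with 1 symbol per mouse; grey marks projection neuron clusters and yellow the astrocyte-like cluster 9. Cluster 9 stands with projection neuron clusters 2, 5 and 13 in Lhx2, at 25.2 to 43.1 CPM and above cluster 4, and with the clusters outside the projection neurons in Slc17a7. Cluster 14, which holds the ET2-like nuclei, has the reverse pattern.

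Genes near the 6 were taken from the annotation, as all counted genes with a base within 20000 bases of one of them. There were 7 besides the members, of which 5 passed the filter on low counts. Each type was compared with the mean of the other named types with edgeR, with a gene called at an adjusted p under 0.05 and a log2 fold change beyond 1. Because the subclusters were formed on the same counts, these p-values rank genes and are no independent test of the types. In ET2-like nuclei 3 of 5 neighbours were called higher and 1 lower, where 7.64% of all 14696 genes were called higher and 6.18% lower. Of the 3, Gm27199 and Sdsl passed the filter through the libraries in which they were high, so that their calls restate those levels. In M1-like nuclei 1 of 5 was called higher, again Gm27199, for which the same holds, and none lower, beside 7.81% and 4.04% of all genes.

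The strongest neighbour was Gm27199, annotated as antisense to Lhx5 over its start, at chromosome 5 from 120419659 to 120431767 on the minus strand. It measured 53.2, 36.4 and 33.2 CPM in ET2-like nuclei (40.9 ± 10.8 CPM) and 34.6 ± 9.31 CPM in M1-like nuclei (SD, n = 3 each), and 3.87 ± 1.38 CPM or less in the other 7 subclusters. These are also the 2 types with the highest Lhx5. Sdsl, a serine dehydratase-like gene beyond the other end of Lhx5, was at 3.92 ± 0.613 CPM in ET2-like nuclei from 23 UMIs, and at 0.883 CPM or less in each library of the other named subclusters.

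Lhx2 likewise had an antisense partner inside its span, Gm13584, at chromosome 2 from 38359580 to 38363980 on the minus strand. It measured 15.7 ± 1.55 CPM in T1-like, 11.6 ± 0.366 CPM in M2-like, 15.5 ± 9.23 CPM in M3-like and 1.07 ± 0.950 CPM in ET2-like nuclei (SD, n = 3). In edgeR it was lower in ET2-like nuclei, at -2.61 on the log2 scale (SE 0.49, adjusted p 0.00016). Whether the counting used the strand of the reads is not given in the sources used here. Reads from a stretch that both genes of a pair cover may therefore not be told apart. Gm13584 lies wholly inside Lhx2, while Gm27199 and Lhx5 share only the bases from 120431699 to 120431767.

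Aatf, an apoptosis-antagonizing transcription factor, starts 4762 bases beyond the end of Lhx1 on the same strand. It was counted in every type and was highest in ET2-like nuclei, at 130, 96.3 and 121 CPM (116 ± 17.4 CPM, SD, n = 3), against means of 29.1 to 57.3 CPM in the 8 other subclusters. The difference was 1.30 on the log2 scale (SE 0.12, edgeR adjusted p 1.4e-09). The neighbour of Uncx, 4930500L23Rik, had 11 UMIs in ET2-like nuclei and was too low to test, as was Gm27197 inside Lhx2, and 2310009B15Rik beside Lhx9 was not called in either type.

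**Figure D4:**
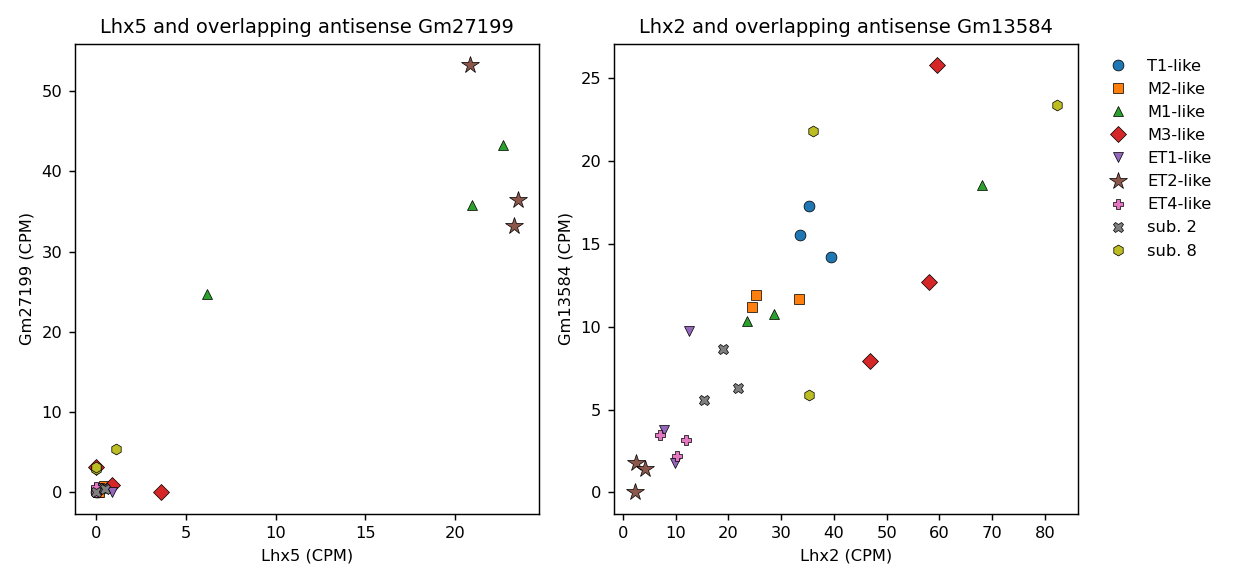
Level (CPM) of Lhx5 against its overlapping antisense gene Gm27199 (left) and of Lhx2 against Gm13584 (right), 1 point per mouse and subcluster. ET2-like (stars) and M1-like (upward triangles) libraries stand apart at the upper right on the left side, with the M1-like library of mouse 1 between, and the 3 ET2-like libraries stand at the lower left on the right side.

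The pathway around these factors was followed in 10 genes of LIM cofactors and LIM-only proteins, which compete with LIM homeodomain factors for Ldb proteins, and 9 passed the filter. In ET2-like nuclei 1 of 9 was called higher, Ldb2, a LIM-domain-binding cofactor, and none lower, beside 7.64% and 6.18% of all genes, so that the count is not read as a result about the list. Ldb2 measured 45.1, 24.8 and 16.2 CPM in ET2-like nuclei (28.7 ± 14.8 CPM, SD, n = 3), while the highest mean elsewhere was 7.10 ± 1.01 CPM in subcluster 2. All ET2-like libraries lay above all others, and edgeR put the difference at 3.37 on the log2 scale (SE 0.32, adjusted p 4.5e-09). Ldb1, its paralogue, was at 18.7 ± 3.84 CPM in ET2-like nuclei, among means of 11.4 to 25.1 CPM in the other subclusters, with a log2 fold change of 0.04 (SE 0.18). Of the 7 other tested genes, Lmo4, a LIM-only gene, had -0.95 (SE 0.19, adjusted p 0.00026, edgeR) and stayed under the fold threshold, as did Ssbp2 and Ssbp4, which encode partners of Ldb proteins, at 0.89 (SE 0.15) and 0.88 (SE 0.19). The median log2 fold change of the 9 genes was 0.16, beside 0.02 over all genes tested.

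Ldb2 was high in other nuclei of the sort as well, at 248 ± 46.3 CPM in cluster 10, which carried 7 of 10 inhibitory neuron markers, and at 66.8 ± 11.8 CPM in the astrocyte-like cluster 9. The summed level of 10 inhibitory neuron markers was 711, 1089 and 260.3 CPM in the ET2-like libraries of mice 1, 2 and 3, against 79.2 to 737 CPM in those of the other named subclusters, with none of the 10 at 0 in ET2-like nuclei. That of 7 astrocyte markers was 282, 329 and 337 CPM, against 37.8 to 284 CPM, with 2 of the 7 at 0 in mouse 1, and the part of astrocyte RNA was not tested. Slc1a2 alone made 240, 230 and 288 CPM of these ET2-like sums, while Aqp4 was at 0, 2.84 and 6.35 CPM. In the 281 ET2-like nuclei with fewer than 2 UMIs of Gad1 and Gad2, which make GABA, Ldb2 was at 29.0 ± 16.9 CPM, against 28.7 ± 14.8 CPM in all 471.

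In M1-like nuclei 1 of the 9 genes was called lower, beside 4.04% of all genes, and none higher, beside 7.81%. It was Lmo2, a LIM-only gene, at 0, 2.04 and 3.98 CPM in mice 1, 2 and 3. The difference was -1.10 on the log2 scale (SE 0.30, edgeR adjusted p 0.0063). Without mouse 2 it was -0.76 (adjusted p 0.25) and no longer called. The highest Lmo2 among the subclusters was that of M2-like nuclei, at 26.3 ± 2.04 CPM, while ET4-like nuclei held 2.41 ± 0.371 CPM. Over all clusters Lmo2 was highest in cluster 17, which carried 8 of 10 inhibitory neuron markers. The median log2 fold change of the 9 genes in M1-like nuclei was -0.21, beside -0.02 over all genes. Among the subclusters Lmo4 had its highest mean in ET4-like nuclei, 104 ± 14.5 CPM, and its lowest in M2-like nuclei, 23.3 ± 5.04 CPM.

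**Figure D5:**
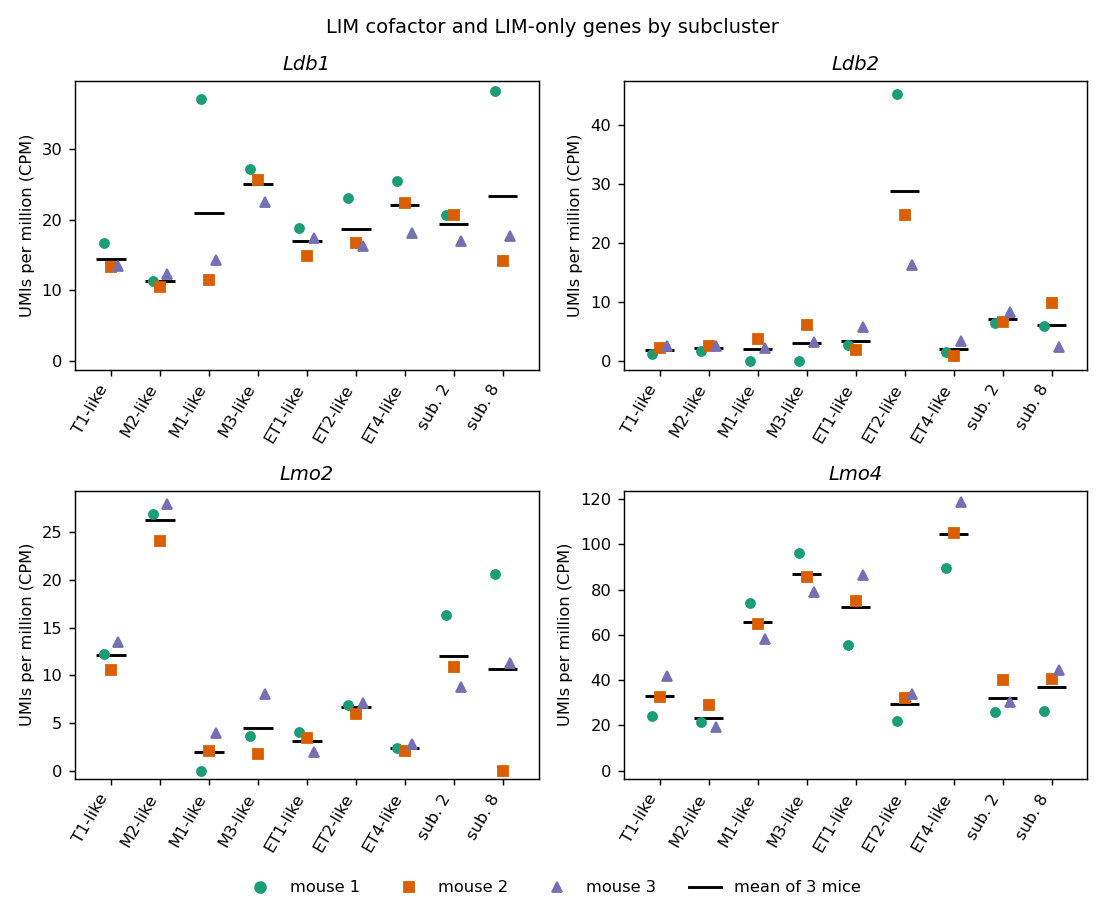
Levels (CPM, linear axes) of the LIM-binding cofactors Ldb1 and Ldb2 and of the LIM-only genes Lmo2 and Lmo4 by subcluster, with 1 symbol per mouse and a bar at the mean. Ldb2 is highest in ET2-like nuclei in each mouse, from 16.2 to 45.1 CPM, while Ldb1 shows no such difference, and Lmo2 is highest in M2-like nuclei.

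The 8 other LIM homeodomain genes of the mouse were hardly counted. None passed the filter, so that none was tested. Isl2 had no UMI in any nucleus, Isl1 had 3 and Lhx6 had 20 over all nuclei, and the highest, Lmx1a and Lmx1b, had 289 and 185. Among the subclusters, Lmx1a had its highest mean, 1.41 ± 0.899 CPM, in ET2-like nuclei from 6 UMIs. Lmx1b had its highest there, 2.26 ± 3.41 CPM, in M1-like nuclei, also from 6 UMIs. Over all clusters both were highest in cluster 18, which carried all 8 vascular and meningeal markers. Of 12 other paired-class genes, 3 passed the filter.

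In M1-like nuclei none of the 3 paired-class genes was called by edgeR or DESeq2, beside 7.81% of all genes called higher and 4.04% lower in edgeR, and 0 of 3 had an unadjusted p under 0.05. Shox2, a paired-class factor too low for the filter, had UMIs in M1-like nuclei and in no other named subcluster. It measured 0, 2.28 and 2.19 CPM in mice 1, 2 and 3, with 30 of its 31 subclustered UMIs there and the other in subcluster 9. Uncx and Lhx1 had 1 UMI each in the same nuclei.

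For each of the 6, the genes with the most similar level over the 28 libraries of mouse and subcluster were looked up among 13613 others, by Pearson's r of log2(CPM + 1). The libraries share mice and depth, and r is given as a description. Lhx1 was closest to 4930438E09Rik (r = 0.992), Uncx (0.990) and Dsp (0.983), the gene of the junction protein desmoplakin, with 21.4 ± 5.94 CPM for ET2-like nuclei and 1.09 CPM or less elsewhere. Lhx1os was closest to Uncx (0.950), Edn1 (0.944), which encodes endothelin, and Lhx1 (0.941). Uncx was closest to Lhx1, Trp73os (0.984) and Gm10578 (0.984). Each of these 3 members had another of them among its closest 3. The members were picked for such levels, so that this restates their levels in ET2-like nuclei and adds no support.

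Lhx5 was closest to 2610037D02Rik (r = 0.934), which measured 816 ± 6.43 CPM in ET2-like and 493 ± 159 CPM in M1-like nuclei against 63.7 to 162 CPM in the other subclusters, and then to Eml1 (0.896), which encodes a microtubule-associated protein, and Fbxl7 (0.889). Lhx2 was closest to its antisense partner Gm13584 (0.903), then to the kinase gene Plk2 (0.886) and Fam110b (0.883). Plk2 was at 62.2 ± 13.5 CPM in M3-like and 7.91 ± 3.97 CPM in ET2-like nuclei. Lhx9 was closest to the cyclin gene Ccnd2 (0.876), Gsdme (0.868), which encodes gasdermin E, and Adgrl3 (0.852), which encodes a latrophilin. Ccnd2 was at 46.4 ± 16.5 CPM in M3-like, 28.0 ± 4.80 CPM in ET2-like and 30.5 ± 1.58 CPM in subcluster 8 nuclei, and under 10 CPM in the others.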

How the data were processed

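Nuclei of 3 mice, 1 library each, were counted by the authors on mm10 (GRCm38); the file headers name Cell Ranger 3.0.2. The deposited values are raw UMI counts per gene and nucleus, without normalization. A deposited table gives the mouse, cluster and subcluster of each retained nucleus, and its percent column of mitochondrial UMIs, deposited by the authors, served only to check their filter (at least 1000 genes, at most 5%). Its 6 other numeric columns were not used. Merging of the libraries and clustering were the authors' own, in Seurat. Whether intronic reads were counted is not given in the sources used here. Doublets were handled by the authors' sorting gate alone. The mice shared 39, 8 and 35 barcodes between pairs of libraries.

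The 6 genes and the lists were chosen with earlier results of these data known. Counts were summed per mouse and subcluster with at least 10 nuclei and scaled to CPM, or tested with edgeR 4.0.16 (quasi-likelihood, TMM, filterByExpr, Benjamini-Hochberg over 14696 genes) in R 4.3.3 over 21 libraries of 7 named subclusters. SEs of log2 fold changes were derived from the F statistic (absolute value over root F). Calls are given for list and neighbouring genes alone, each called one is named except for results of the paired-class list that are not reported here, and so are the 3 genes most similar to each member with at least 5 CPM in a subcluster. Libraries of 1 mouse come from the same animal, so that the mouse pairs them (mean r of deviations 0.108 over 63 same-mouse pairs, -0.0535 over 126 others). The study states no block, which was an alternative beside DESeq2 1.42.0, other scalings and each mouse left out. Intervals are exact at 95%, a count of 0 is limited by 3 counts, and both cover counting error only. On simulated counts with 200 changed genes the test was checked first. Positions are from GENCODE M21 and start windows from RefSeq, which held 5 of the 6 genes. Of the 31-base words of each gene's transcripts, at most 2.53% occur in other genes.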

Additional observations from a re-analysis of the deposited data

How the results depend on the processing

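The subcluster with the highest mean of Lhx1, Lhx1os, Uncx and Lhx5 was ET2-like under each of 9 alternatives, and Lhx2 was lowest there in each, while M3-like nuclei and subcluster 8 exchanged the highest place for Lhx2 and Lhx9. Of 81 alternative values of the 9 main levels, 72 stayed within 1 SD of the mice and 9 did not. The 81 include means with 1 mouse left out, which with 3 mice lie within 1 SD by construction. All 9 that moved thus came from the other alternatives, and the count of 72 is no measure of stability for the left-out means. Lhx1 in ET2-like nuclei was 87.9 CPM with TMM, 88.7 with relative log expression factors, 97.6 as a mean over nuclei, 103 without Malat1 in the total and 99.1 without nuclei with 2 or more Gad1 and Gad2 UMIs. Lhx5 there was 25.5 CPM without Malat1. In M3-like nuclei Lhx2 was 47.8 CPM with TMM and 47.4 as a mean over nuclei, and Lhx9 was 21.5 as a mean over nuclei. The mean share of ET2-like nuclei with Lhx1 was 37.0% thinned, 32.2% at 2 or more UMIs and 57.6% in nuclei with at least 1500 genes. Lhx2 there was 1.08% at 2 or more UMIs, and Lhx5 in M1-like nuclei was 6.56% thinned and 7.66% at 2 or more UMIs, by construction. Leaving out a mouse gave 4254 to 5510 genes with a subcluster above all others instead of 2650, from fewer libraries. The LIM lists had 1 call in ET2-like nuclei, Ldb2, and 1 to 2 with a mouse left out (Lmo4 lower as well without mouse 3). In M1-like nuclei they had 1, Lmo2, and 0 to 1 (0 without mouse 2). With the mouse as a replicate block, which gave 1 call in each, no call of a listed gene changed. With no filter 4930500L23Rik was also called in ET2-like nuclei, and without mouse 3 too. Shox2 was called higher in M1-like nuclei with no filter and without mouse 1, which restates its levels there. Without mouse 2 Sdsl was not tested, and without mouse 3 Gm13584 was called higher in M1-like nuclei. The values of Ldb2 without Gad1 and Gad2 nuclei were chosen after seeing the data. Depth limits the shares of single nuclei, and the 14 M1-like nuclei of mouse 1 limit the M1-like means.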
